A study of Mus musculus with 3 samples.

Results

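Cellular iron handling in undifferentiated F9 cells was described here for 10 genes that take up, reduce, store, export or sense iron. F9 is a mouse embryonal carcinoma line, a tumour-derived cell that resembles the early embryo and stays undifferentiated in ordinary culture. Every probe set of the array whose platform annotation gave a single symbol among Tfrc, Tfr2, Fth1, Slc11a2, Slc40a1, Ireb2, Aco1, Steap3, Heph and Cybrd1 was taken. This gave 26 probe sets (short oligonucleotide sets that each report on 1 transcript region) of 45101 on the array, or 10 of 18194 named genes. The only group was 3 replicate Affymetrix Mouse Genome 430 2.0 arrays of total RNA from cells without treatment, grown on 0.2% gelatin in medium with 10% fetal calf serum and harvested at about 80% confluence. No treated, differentiated or other comparison sample belongs to the design, so the question was which of these genes lay above the array background and how steady their signals were between arrays. The gene identifiers in the annotation were 22042 for Tfrc, 50765 for Tfr2, 14319 for Fth1, 18174 for Slc11a2, 53945 for Slc40a1, 64602 for Ireb2, 11428 for Aco1, 68428 for Steap3, 15203 for Heph and 73649 for Cybrd1.

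Most proliferating mammalian cells import iron by binding iron-loaded transferrin to the transferrin receptor, taking the complex into endosomes, reducing the released ferric iron and moving ferrous iron into the cytosol. Iron that is not used at once for heme or iron-sulfur clusters is stored in ferritin or leaves through ferroportin. Iron regulatory proteins adjust these steps after transcription by binding stem-loops in mRNAs, which stabilises the transferrin receptor mRNA and blocks ferritin translation when iron is scarce. The level of an mRNA on an array can reflect the first of these effects, without separating it from transcription, but not the second.

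Background was set on each array as the 95th percentile of 127 probe sets for olfactory, vomeronasal and taste receptor and keratin-associated protein genes, and lay at a signal of 44.6, 46.1 and 43.2 on replicates 1, 2 and 3. A probe set was called above background when limma's moderated one-sided test of log2 signal over that threshold had a Benjamini-Hochberg adjusted p under 0.05 across all 45037 probe sets that are not the maker's controls. All 8 markers of undifferentiated embryonal carcinoma cells were above background, with mean signals from 1884 for Fgf4 to 17712 for Dppa5a and, between these, 6809 for Pou5f1, 4794 for Sox2, 4866 for Nanog, 6138 for Zfp42, 3183 for Utf1 and 2765 for Esrrb. Fgf4 was called with 3 of its 4 probe sets and Utf1 with 2 of 3. By limma's test, 0 of 7 erythroid, 0 of 4 hepatocyte and 0 of 4 enterocyte markers were above background, and 0 of them had an unadjusted p under 0.05. Of the visceral endoderm markers 1 of 5 passed (Amn, mean signal 86.9), and of the macrophage markers 2 of 6 (Cd68 at 79.5 and Csf1r at 86.1, both within 1 log2 unit of the threshold). Csf1r had 3 probe sets, of which 1 was called. At the 99th percentile threshold all 3 of these calls were lost (limma adjusted p = 0.0638 for Amn, 0.152 for Cd68 and 0.101 for Csf1r).

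Of the 23 member probe sets in the test, 13 (56.5%) were above background, against 38.1% of all probe sets tested and 45.1% of those with a single gene symbol. Their median log2 signal over the threshold was 0.98, against -0.43 over all probe sets tested. By gene, each represented by its probe set of highest mean signal, 7 of 10 were above background, against 51.1% of all named genes. The median over the 10 was 1.70 log2 units, against 0.72 over all named genes. The genes above background were Tfrc, Tfr2, Fth1, Slc11a2, Ireb2, Aco1 and Cybrd1, and those that did not pass were Slc40a1, Steap3 and Heph. Choosing the highest probe set favours a call, for members and other genes alike. With the median of each gene's probe sets 5 members were above background, and Tfr2 and Cybrd1 did not pass. The share of all named genes under that rule is not given here. In RNA from a whole culture, fewer cells that use a gene and less RNA per cell cannot be told apart.

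**Figure D1:**
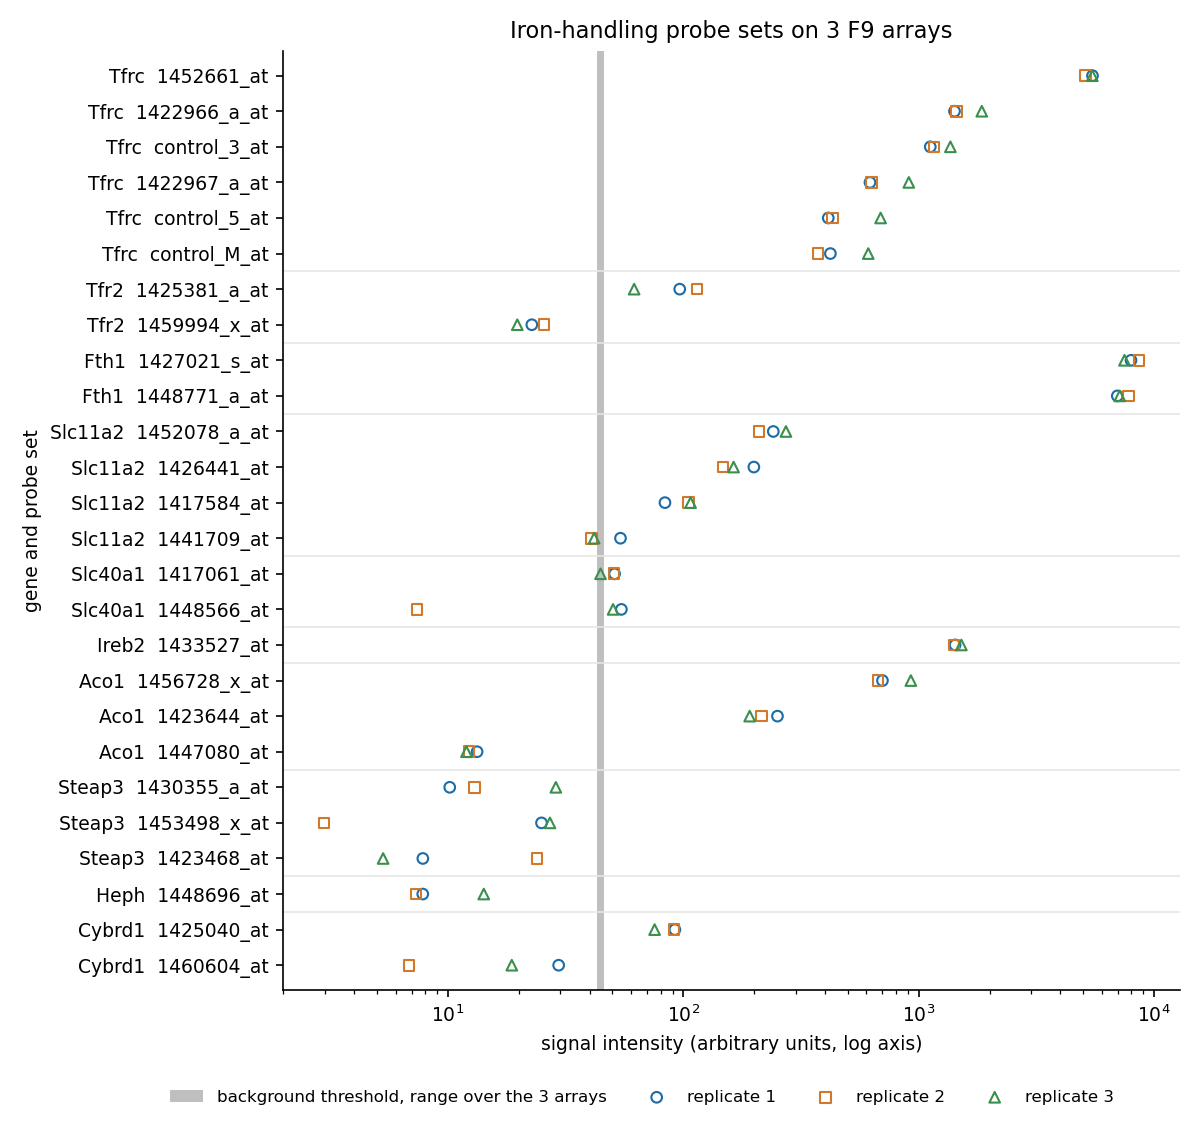
Signal intensity (arbitrary units, log axis) of the 26 member probe sets, 1 row each, on replicate arrays 1, 2 and 3, with the grey band marking the range of the 3 background thresholds (43.2 to 46.1). The Tfrc, Fth1 and Ireb2 points lie far to the right of the band and the Steap3 and Heph points to its left. The Slc40a1 points lie in or beside the band, except 1448566_at on replicate 2, which lies far to its left at 7.39. Names starting with control are the maker's control probe sets for Tfrc.

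Tfrc, the transferrin receptor that carries iron-loaded transferrin into the cell, was above background on every array with every probe set. Probe set 1452661_at had signals of 5478, 5109.6 and 5468 on replicates 1, 2 and 3, a mean of 5352 ± 209.9 (SD, n = 3). That is 6.91 ± 0.11 log2 units (SE) over the threshold, with a limma adjusted p of 0.000109. Probe set 1422966_a_at had signals of 1419.8, 1451 and 1854, and 1422967_a_at of 621, 629 and 908. Both lay above background, at 5.13 and 3.99 log2 units over the threshold (limma adjusted p = 0.000145 and 0.000353). Different probe sets of a gene bind with different strength, so these levels do not rank parts of the transcript.

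The array maker also placed 3 control probe sets on the Tfrc transcript, meant for judging RNA quality, and the test left them out with all other controls. The one toward the 3′ end had signals of 1120.3, 1160.3 and 1364. The middle one had 422, 373 and 611, and the one toward the 5′ end 413, 430.2 and 689. All 9 of these signals exceeded the threshold of their array. With controls added to the fit, an alternative chosen after the data were seen, the 3 lay at 4.76, 3.36 and 3.48 log2 units over the threshold and all 3 were called by limma.

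Replicate 3 gave the highest signal for 5 of the 6 Tfrc probe sets, controls included, and 1452661_at was the exception. Relative to the mean of replicates 1 and 2, replicate 3 was higher by 0.71 log2 units with the 5′ control, 0.62 with the middle control, 0.54 with 1422967_a_at, 0.37 with 1422966_a_at, 0.26 with the 3′ control and 0.05 with 1452661_at. The same difference had a median of 0.00069 over the 17173 probe sets above background, of which 6315 were highest on replicate 3. Scaling of the arrays to a common trimmed mean keeps such a median small, so it does not gauge single probe sets. A range between arrays at least as wide as that of the 5′ control (0.74 log2 units) was seen in 4.45% of those 17173 probe sets, and at least as wide as that of 1452661_at (0.10) in 86.5%. For the middle control, 1422967_a_at, 1422966_a_at and the 3′ control these shares were 5.25%, 12.5%, 27.4% and 43.2%. The 6 probe sets read the same 3 RNA samples and are no replicates of one another. With 1 group and 1 array for each replicate, no test of this difference between arrays was possible.

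The ratio of 3′ to 5′ control signal for Tfrc was 2.71 on replicate 1, 2.70 on replicate 2 and 1.98 on replicate 3. This ratio is used as a sign of RNA quality, since degraded RNA or short labelled copies lower the 5′ signal. It was also lowest on replicate 3 for Pcx, a pyruvate carboxylase gene with control probe sets of the same kind, at 2.17, 1.91 and 1.74. For Pcx the 3′ signal was 225, 195 and 159 and the 5′ signal 104, 102 and 91.4, both lowest on replicate 3. For Tfrc both signals were highest on replicate 3. The ratio for Actb was 1.17, 1.18 and 1.24, and for Gapdh 0.794, 0.81 and 0.814, so these abundant transcripts did not have their lowest ratio on replicate 3. The part of RNA quality in the Tfrc difference between arrays was not tested.

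**Figure D2:**
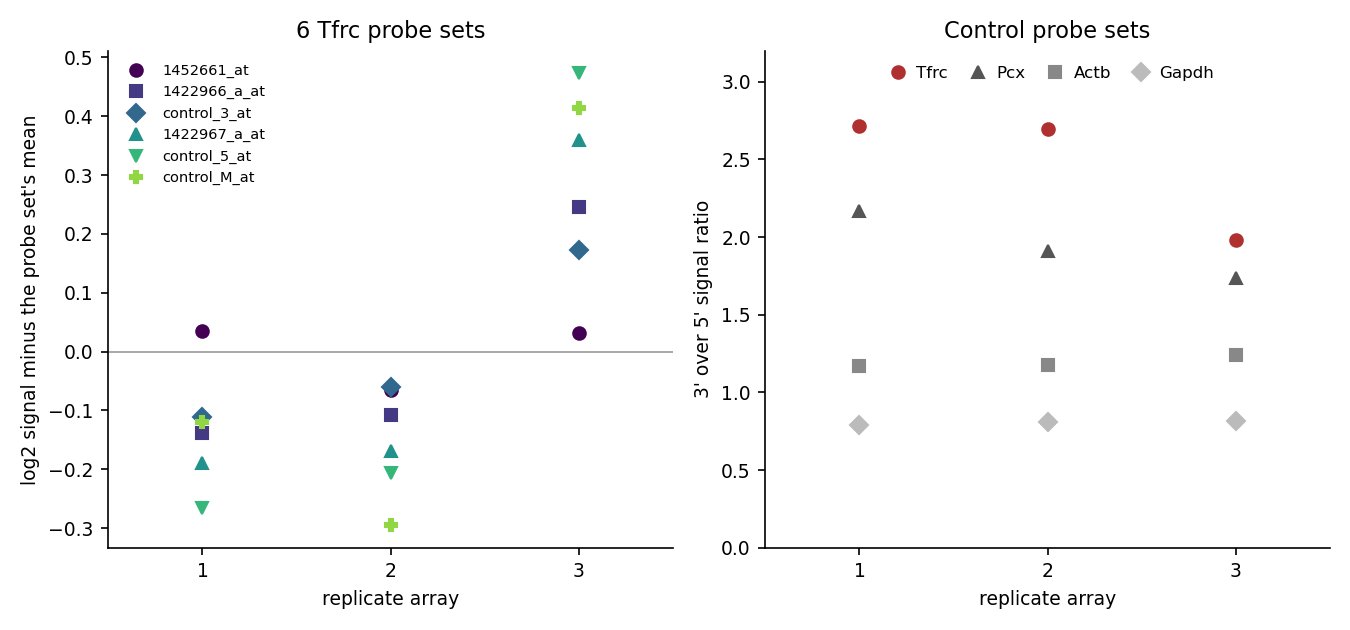
Left, log2 signal of each of the 6 Tfrc probe sets minus its own mean over the arrays, by replicate array; right, ratio of 3′ to 5′ control probe set signal by replicate array for Tfrc, Pcx, Actb and Gapdh. On replicate 3 all Tfrc probe sets but 1452661_at lie well above their values on the other arrays, and the Tfrc ratio is 1.98 there, against 2.71 and 2.70 on replicates 1 and 2.

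Tfr2 encodes a second transferrin receptor, known mainly from liver and erythroid cells, where it takes part in sensing transferrin-bound iron. Its probe set 1425381_a_at had signals of 96.5, 114 and 61.8, all over the threshold but lowest on replicate 3. It was called at 0.98 ± 0.21 log2 units (limma adjusted p = 0.0227). The call was lost without replicate 1 (limma adjusted p = 0.105), without replicate 2 (0.0938) and at the 99th percentile threshold (0.0896), within a range of 0.60 to 1.30 log2 units over the alternatives for this probe set. The other probe set, 1459994_x_at, had signals of 22.7, 25.6 and 19.7, under the threshold on every array. With the median of both probe sets the gene lay at -0.0018 log2 units and was not called. Tfr2 was thus above background by 1 of 2 probe sets and under some settings.

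Reduction of ferric iron, the step before transport, was represented by Steap3 and Cybrd1. Steap3, the endosomal ferric reductase of erythroid precursors, was under the threshold with all 3 probe sets on all arrays. The signals were 10.2, 13 and 28.7 with 1430355_a_at, 25.0, 2.98 and 27.1 with 1453498_x_at, and 7.82, 23.9 and 5.30 with 1423468_at. No replicate was lowest with all of them. Over the array as a whole, the 27864 probe sets that were not called had a median range between arrays of 1.43 log2 units, against 0.25 for those above background. By limma's test 0 of the 3 Steap3 probe sets were called and 0 had an unadjusted p under 0.05.

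Cybrd1, the ferric reductase of the duodenal surface, had signals of 92.0, 91.4 and 75.5 with 1425040_at, above the threshold on every array. It was called at 0.95 ± 0.12 log2 units (limma adjusted p = 0.00482), a call lost at the 99th percentile threshold (0.063). With its other probe set, 1460604_at, the signals were 29.5, 6.82 and 18.7 and not above background, and the median of both lay at -0.29. The Steap3 relative Steap2, listed among the uptake genes and named after its value was seen, was above background with 5 of 5 probe sets at a mean signal of 457, whereas Steap4, also named after its value was seen, had a mean of 4.86 and was not.

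Slc11a2 encodes DMT1, which moves ferrous iron out of the endosome and, in the gut, into the enterocyte. Its 4 probe sets split 3 to 1. Probe set 1452078_a_at had signals of 241, 209.7 and 273, 1426441_at of 199, 147 and 164, and 1417584_at of 83.6, 105 and 107. All 9 values exceeded their thresholds, and the fitted levels were 2.43, 1.92 and 1.14 log2 units over it (limma adjusted p = 0.000671, 0.0013 and 0.00466). Probe set 1441709_at had signals of 54.1, 40.8 and 41.8, over the threshold on replicate 1 alone, and lay at 0.02 log2 units (limma adjusted p = 1). DMT1 mRNAs are known in forms with and without an iron-responsive stem-loop. Which form each probe set reads is not given in the sources used here. At the 99th percentile threshold 1417584_at lost its call (limma adjusted p = 0.0556).

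Fth1, the ferritin heavy chain that oxidises iron as it enters the storage shell, was above background with both probe sets. The signals were 7985, 8635 and 7492 with 1427021_s_at and 6985, 7804 and 7152 with 1448771_a_at, all highest on replicate 2. The fitted levels were 7.49 ± 0.11 and 7.36 ± 0.11 log2 units over the threshold (SE; limma adjusted p = 0.000109 for both). The range between arrays was 0.20 and 0.16 log2 units, against a median range of 0.25 over all probe sets above background. The mouse genome holds Fth1 pseudogenes, and the suffix of 1427021_s_at marks a set that can bind several transcripts, so part of its signal may not be Fth1 mRNA.

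Export was represented by Slc40a1 and Heph, and neither gene passed. Slc40a1 encodes ferroportin, the known iron exporter of mammalian cells. Its probe set 1417061_at had signals of 51.0, 50.7 and 44.5, each just over its array's threshold, and lay at 0.13 ± 0.11 log2 units (limma adjusted p = 0.395). Probe set 1448566_at had signals of 54.5, 7.39 and 50.3, so that replicate 2 lay far below the others, and it did not pass either. Without replicate 2 that probe set stood at 0.26 log2 units over the threshold, still not called (limma adjusted p = 0.283). Heph, hephaestin, a copper oxidase that works with ferroportin in the enterocyte, had a single probe set, 1448696_at, with signals of 7.81, 7.32 and 14.2. These were under the threshold on all 3 arrays, at -2.26 ± 0.28 log2 units.

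The genes of both iron regulatory proteins were above background as mRNA, and the proteins were not measured. Ireb2 encodes IRP2, which is degraded when iron is plentiful. Its only probe set, 1433527_at, had signals of 1428, 1412 and 1519, at 5.03 ± 0.11 log2 units over the threshold (limma adjusted p = 0.000111) with a range between arrays of 0.11 log2 units. Aco1 encodes IRP1, a protein that acts as cytosolic aconitase while it holds an iron-sulfur cluster and binds RNA when it does not. Its probe set 1456728_x_at had signals of 702, 673 and 926, highest on replicate 3, and 1423644_at had 251, 215 and 191, lowest on replicate 3. Both were above background, at 4.09 and 2.29 log2 units over the threshold (limma adjusted p = 0.000255 and 0.000573), although they ordered the arrays differently. The suffix of 1456728_x_at marks a set that can bind other transcripts, and without such sets Aco1 was represented by 1423644_at, at 2.29 in place of 4.09 log2 units and still called. The third, 1447080_at, had 13.3, 12.3 and 11.98 and was under the threshold on all arrays.

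Probe sets of a gene thus gave different calls in 4 of the 8 members with several tested probe sets, namely Tfr2, Slc11a2, Aco1 and Cybrd1. That is 50.0% of them, beside 39.9% of 8999 genes with several probe sets on the array. Tfrc and Fth1 had all their tested probe sets above background, and Slc40a1 and Steap3 had none. Between arrays, the 13 member probe sets above background had a median SD of 0.20 log2 units, against 0.13 over all probe sets above background. Without replicate 3 the median SD of the same 13 was 0.08, and without replicate 1 or replicate 2 it was 0.14 and 0.20. These values rest on fewer arrays and were not computed over all probe sets above background. They therefore do not show whether replicate 3 stands apart for the members in particular.

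**Figure D3:**
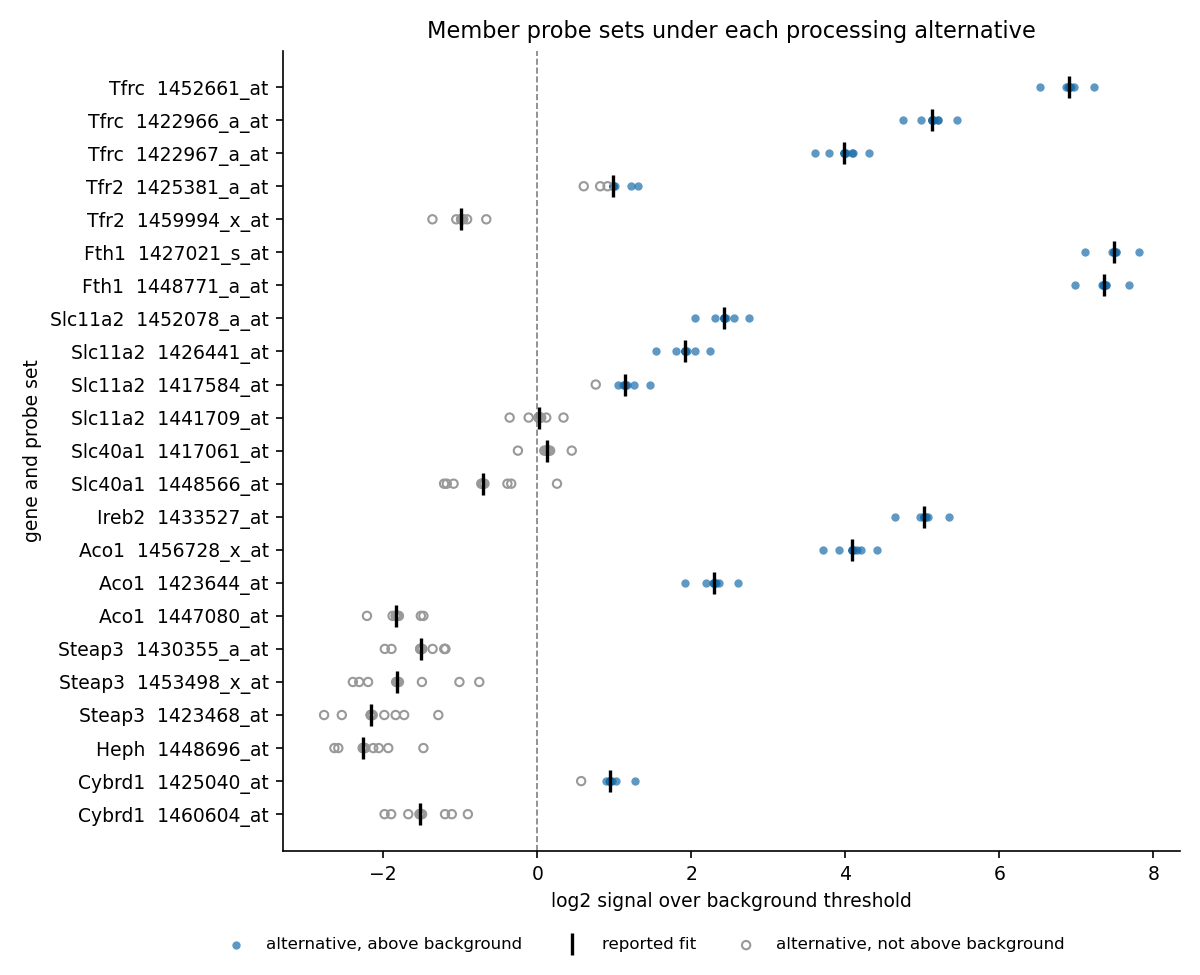
Fitted log2 signal over the background threshold of the 23 tested member probe sets, 1 row each, with a black bar for the reported fit and circles for each processing alternative, filled where limma called the probe set. The Tfrc, Fth1, Ireb2 and first 2 Aco1 rows are filled throughout, Tfr2 1425381_a_at ranges from 0.60 to 1.30 with a mixture of calls, and both Slc40a1 rows have open circles only, on both sides of 0.

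The other genes of iron metabolism were listed by role to set the members in their pathway. Of 85 listed genes 77 had a probe set with a single symbol, and 57 of these (74.0%) were above background, against 51.1% of all named genes. The lists were chosen with earlier results of these data known, and this difference was not tested. By list the share ran from 40.0% for export and oxidases to 100% for mitochondrial iron and iron-sulfur clusters, which gave 19 of the 57. Uptake (50.0%), export and the hepcidin axis (45.5%) lay under 51.1%, and the other lists above it. Of the genes for uptake and the transferrin cycle 6 of 12 passed. Vps35 (5383, 5349 and 5714), a retromer subunit, and Snx3 (3571, 3762 and 3334), a sorting nexin that returns the transferrin receptor to the surface, were above background. So were Exoc6 (273, 245 and 254), an exocyst subunit, and Mcoln1 (393, 342 and 289), a lysosomal cation channel that can release iron. Exoc6 was called with 3 of its 4 probe sets and Mcoln1 with 2 of 3. Hfe, the partner of transferrin receptors in hepatocytes, had signals of 5.33, 8.57 and 16.9 and did not pass. The others that did not pass, named after their values were seen, were Steap4, Slc39a8, Scara5, Lcn2 and Meltf.

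Among genes of ferritin and its turnover 3 of 4 passed. The iron chaperones Pcbp1 (3592, 3506 and 3208) and Pcbp2 (7752, 7730.2 and 7439) were above background, and mitochondrial ferritin Ftmt (2.53, 18.8 and 3.404) was not. The ferritin light chain was not analysed here. Of the export and oxidase genes 2 of 5 passed. These were Flvcr1 (379, 465 and 556), a membrane transporter linked to heme export, and Abcg2 (824, 819 and 937), a transporter that can carry porphyrins. Flvcr1 was called with 1 of its 2 probe sets. The copper oxidases Cp (72.0, 29.2 and 16.9) and Hephl1 (36.4, 8.60 and 29.3) did not pass, like their relative Heph.

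Of 8 genes that control the iron regulatory proteins or Tfrc mRNA 7 passed, and 6 with the median of each gene's probe sets. Fbxl5 (369, 391 and 495), the iron-sensing F-box protein that marks IRP2 for degradation, was above background, as were Skp1 (5865, 5583 and 5283) and Cul1 (1163, 1244 and 1237) of its ubiquitin ligase. Zfp36 (67.9, 53.7 and 23.9), which binds and destabilises mRNAs, was not, and its arrays lay on both sides of the threshold.

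Mitochondrial iron import and iron-sulfur cluster assembly was above background in 19 of 19 measured genes, with a median of 3.79 log2 units over the threshold. The mitoferrins Slc25a37 (191, 177 and 166) and Slc25a28 (395, 428 and 395) and the cysteine desulfurase Nfs1 (674, 719 and 658) were among them. Nfs1 was called with 2 of its 3 probe sets. With the median of each gene's probe sets the count of genes above background in this list was 17. Heme synthesis passed in 9 of 10 genes, and in 7 with the median of each gene's probe sets. Alas1 (313, 391 and 344), the first enzyme of the pathway in most cells, and Alad (601, 501 and 504), the next enzyme, were above background. Each of them was called with 1 of its 2 probe sets. Alas2 (7.08, 6.26 and 1.98), the erythroid form of the first enzyme, was not above background. On these arrays 0 of 7 erythroid markers passed limma's test, and a link with Alas2 was not tested.

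Heme breakdown and transport genes passed in 6 of 8 cases. The heme oxygenases Hmox1 (844, 726 and 743) and Hmox2 (661, 677 and 619) and the biliverdin reductase Blvra (248, 229 and 272) were above background, and the plasma proteins Hp (3.36, 3.61 and 3.02) and Hpx (19.3, 12.2 and 1.92) were not. The hepcidin axis, by which the liver sets body iron, passed in 5 of 11 genes. The 5 were the BMP receptor genes Bmpr1a (730.1, 858 and 865) and Acvr1 (166, 153 and 195) and, named after their values were seen, Neo1, Smad1 and Smad5. Bmpr1a was called with 4 of its 6 probe sets, Acvr1 with 2 of 3 and Neo1 with 2 of 5. The BMP ligand genes Bmp6 and Bmp2, also named after their values were seen, lay at -1.88 and -1.63 log2 units and did not pass. The hepcidin genes Hamp (38.8, 70.3 and 65.2) and Hamp2 (35.1, 45.8 and 29.0) and the co-receptor gene Hjv (51.3, 42.3 and 55.4) lay near the threshold and did not pass. On these arrays 0 of 4 hepatocyte markers passed limma's test, and a link with the hepcidin axis was not tested.

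**Figure D4:**
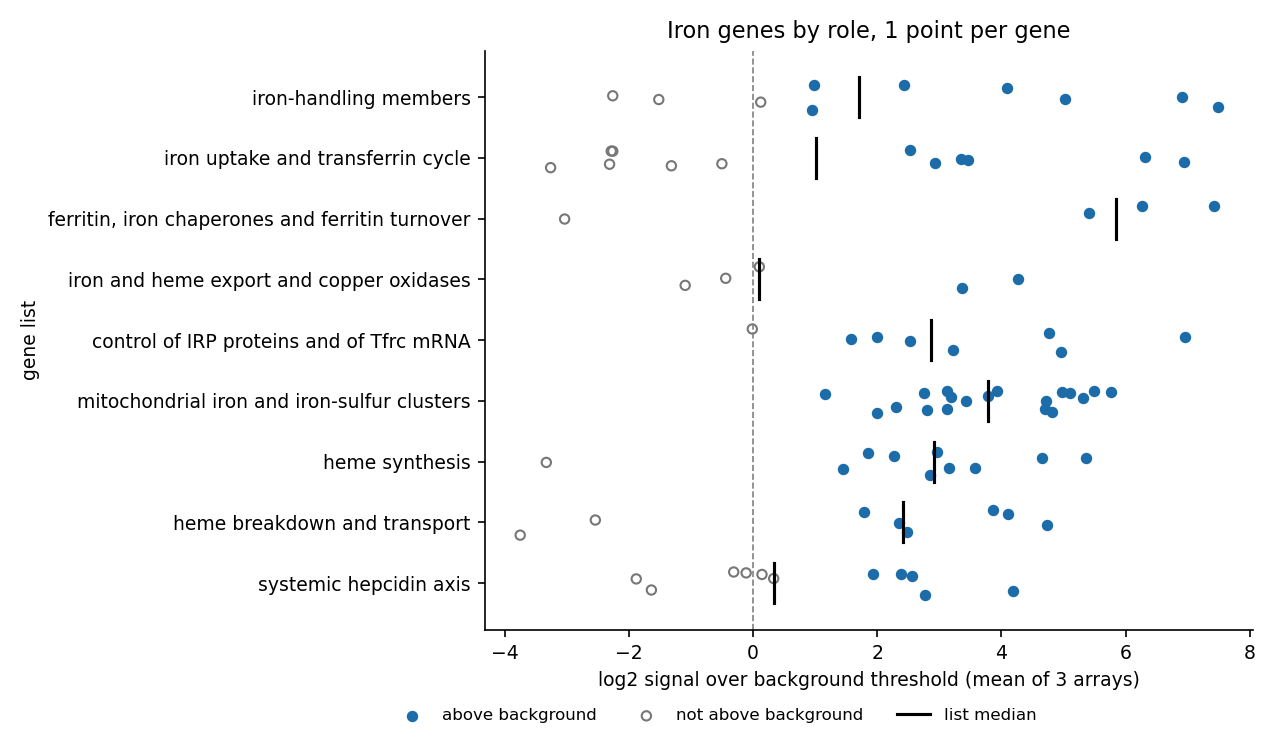
Log2 signal over the background threshold (mean of the 3 arrays), 1 point per gene, for the 10 members and 8 lists of other iron genes; filled points are above background, open points are not, and a bar marks the median of each list. The members spread from -2.26 to 7.49, and the list of mitochondrial iron and iron-sulfur cluster genes has 19 filled points and 0 open ones.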

How the data were processed

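Total RNA of 3 F9 samples was measured on 1 array each. The authors deposited linear signal intensities, made with GCOS 1.4 per the submitters' processing notes. Its summary algorithm and detection calls are unstated there. The values show that each array was scaled to a common trimmed mean, which hides any change in total RNA. No further normalization was applied. Symbols came from a platform annotation of probe sets; the values name no genome build, so no coordinates are given. Each array's background threshold was subtracted on the log2 scale. The mean over arrays was tested for being above 0 with limma 3.58.1 (lmFit and eBayes, R 4.3.3). A run of this procedure on simulated data set limits only for signals well under and well over the threshold. Its outcome close to the threshold is not given here. Members and lists were chosen with earlier results of these data known. The text names all members and their probe sets, the first 3 measured genes of each pathway list, up to 2 with the less common call, all embryonal carcinoma markers and other markers that passed. In the uptake list the calls tied, and the 2 added genes were taken from those that passed. Nothing in the labels tells whether the replicates were separate cultures. The p-values then cover the spread between these 3 samples alone, which could be technical, and so few arrays limit the precision.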

Additional observations from a re-analysis of the deposited data

How the results depend on the processing

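The settings tried were 90th and 99th percentile thresholds, olfactory receptors alone as background, quantile normalization, signals under 16 set to 16, an intensity trend in the variance, each replicate left out, no _s_at and _x_at probe sets, the median of a gene's probe sets and, added after the data were seen, controls in the fit. The count of member probe sets was 10 to 16 (13 as reported), of member genes 5 to 7 (7) and of other iron genes 52 to 57 (57). The 16 came from adding the 3 Tfrc controls to the 23 tested probe sets, and no other setting gave more than 13. Without _s_at and _x_at sets fewer member probe sets were tested, and 11 were called. With 1 replicate left out the median SD of member probe sets was 0.0799 to 0.202. Apart from Csf1r, Tfr2 and Cybrd1, which were called as reported, the values that changed sign were called under neither setting. At the 99th percentile these were Slc11a2 1441709_at (-0.36), Slc40a1 1417061_at (-0.25), Hamp (-0.043) and Hjv (-0.23), and at the 90th Hamp2 (0.013) and Zfp36 (0.31). With 1 replicate left out, the ranges were -0.11 to 0.12 for Slc11a2 1441709_at, -1.21 to 0.26 for Slc40a1 1448566_at, -1.003 to 0.017 for Cp and -0.32 to 0.41 for Zfp36. Zfp36 lay at 0.014 with olfactory receptors alone and at 0.0025 with quantile normalization. With _s_at and _x_at sets left out Hamp lay at -0.36 and Hjv at -0.65. With the median of probe sets Csf1r lay at -0.24, Hamp at -0.012, Hjv at -0.25, Tfr2 at -0.0018, Slc40a1 at -0.29 and Cybrd1 at -0.29. The causes were not tested. No paired analysis was possible because there is only 1 group.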
